A study of Mus musculus with 30 samples.

Results

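The response of skeletal muscle and liver to calorie restriction (CR) was compared gene by gene, as the difference between the change in muscle and the change in liver. It rests on 20 of the 30 arrays of the series, 5 for each tissue and diet, and on 8998 of the 25697 probes of the array, those detected in both tissues. In each tissue a probe needed a detection p-value below 0.02 on 5 or more of its 15 arrays. These probes name 6534 genes. The tissues came from male C57BL/6J mice. CR mice received a 40% restriction, and mice on the standard diet (SD) ate an AIN-93G diet freely. By the labels the diets began at 28 weeks of age. The CR labels give an age of 41 weeks at sampling, with 14 weeks of diet. The SD labels instead put sampling at the end of life, although the notes on the design say that both tissues of every diet came from mice killed after 41 weeks. The methods of the study also give an age of 41 weeks and 14 weeks of diet for its arrays, without setting SD apart. The labels do not say which muscle was taken. The remaining 10 arrays, of mice given the SIRT1 activator SRT2104, entered only the detection filter.

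Calorie restriction lowers insulin and growth factor signaling, moves fuel use from carbohydrate towards fat and ketone bodies, and holds back sterol synthesis in the liver. Restricted mice usually eat their ration within a short part of the day, and the meal sets the phase of clocks in peripheral tissues. In those clocks the activator BMAL1, encoded by Arntl, acts with CLOCK on E-box elements of the Per, Cry and Nr1d1 genes, and the NR1D1 and ROR receptors compete at ROR response elements of Arntl.

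Arrays were not equally good. Signals were weaker on CR in muscle. The median signal of an array was 154.7 to 287.85 in muscle CR and 272.35 to 480.15 in muscle SD. Probes detected were 26.7% to 41.8% in muscle CR and 38.5% to 43.1% in muscle SD. In liver the median signal was 406.8 to 470.9 on CR and 469.8 to 603.2 on SD. The part of signal strength in the changes between diets was not tested. The fibre markers of muscle (8 genes, among them Acta1, the skeletal actin) were detected on all muscle arrays, whereas none of the 8 hepatocyte markers was detected on all 5 arrays of either muscle group, and 7 of them were on all 5 liver CR arrays and 6 on all 5 liver SD arrays. Some hepatocyte markers were higher in part of the muscle CR arrays. Ttr was at 7.82, 8.23 and 8.54 in muscle CR replicates 1 to 3 and at most 7.34 in muscle SD arrays, and Apoa1 was detected on 3 muscle CR and 0 muscle SD arrays. Alb, Serpina1a, Fgb and Fga, detected on no muscle array, were also highest in muscle CR replicate 3 (7.32, 7.62, 7.32 and 7.48). Undetected signals were thus higher in that array, and their part in its other values was not tested. The 13 measured hepatocyte genes had a median change of 0.48 in muscle and 0.34 in liver, 0 passed in muscle, and their part in the muscle results was not tested. Muscle CR replicate 3 correlated with the other arrays of its group at a median r of 0.809, against 0.964 or more for the other 4 muscle CR arrays, and muscle SD replicate 1 had a mean fibre marker level of 13.76, under that of the other muscle arrays. Liver CR replicate 1 carried muscle fibre markers (Acta1 at 12.96, against 6.91 to 6.98 in the other liver CR arrays). Liver SD replicate 2 carried them at a lower level (Acta1 at 8.38, against 6.71 to 6.90 in the other liver SD arrays) and was kept in every set of arrays below. The adipocyte gene Adipoq was at 12.22 in muscle CR replicate 2 and 10.47 in muscle CR replicate 3, against 8.35 to 9.19 in the other muscle CR arrays and 8.57 to 9.27 in muscle SD arrays. Of the other adipocyte markers with a probe, Plin1 was also highest in muscle CR replicate 2 (7.95). Retn (6.94) and Fabp4 (6.76) were not raised in that array, and neither was detected on any muscle array. Results are therefore given for all 20 arrays, then for 18 arrays, which leave out muscle CR replicate 3 and muscle SD replicate 1, and where it matters for 16 arrays, which also leave out muscle CR replicate 2 and liver CR replicate 1. In bulk tissue, fewer cells of a type and less RNA per cell cannot be told apart.

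The change in muscle differed from the change in liver at 315 of 8998 probes (3.5%) at an adjusted p-value under 0.05. For 185 of them (2.06%) the muscle value lay above the liver value, and for 130 (1.44%) below it. Within the tissues, 21 probes changed in muscle (0.233%), 5 higher (0.0556%) and 16 lower (0.178%) on CR, and 2261 changed in liver (25.1%), 1115 higher (12.4%) and 1146 lower (12.7%). At an unadjusted p-value under 0.05 the counts were 1600 for the difference (17.8%), 730 in muscle (8.11%) and 3472 in liver (38.6%). Muscle was measured less precisely, since the median half-width of the 95% interval of a change was 0.32 on the log2 scale in muscle and 0.19 in liver. With 18 arrays the half-width in muscle was 0.21, the muscle count was 140 (1.56%) and the count for the difference was 823 (9.15%), 433 with the muscle value above (4.81%) and 390 with it below (4.33%). The 823 include all 315. With 16 arrays 562 probes differed between the tissues and 260 changed in muscle. Single arrays set much of this. Leaving out muscle CR replicate 3 alone gave 665 differences and 74 muscle changes. Leaving out any 1 of muscle CR replicates 1, 4 and 5 or of the 5 muscle SD arrays gave 1 to 13 muscle changes, and leaving out muscle SD replicate 2 or 4 or liver CR replicate 1, 3 or 5 gave between 199 and 209 differences.

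Sorted by these tests, 10 probes of 9 genes changed alike in both tissues, that is, they passed in each tissue in the same direction and did not pass for a difference. Another 2 probes changed in the same direction by unequal amounts. No probe changed in opposite directions with both changes passing, 275 probes changed in liver only and 6 in muscle only, where the difference between tissues passed too. A further 32 passed for the difference alone. With 18 arrays the counts were 50 alike, 6 in the same direction and unequal, 0 opposite, 662 in liver only and 41 in muscle only. The other 1974 liver changes passed neither in muscle nor for the difference, so that for most of the liver response these arrays do not say whether muscle shared it.

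Across probes the log2 changes of the tissues correlated weakly (Pearson r = 0.20, Spearman correlation 0.17, n = 8998 probes, which share the same arrays), and with 18 arrays r was 0.24. The sign was the same in both tissues for 55.4% of all probes and for 60.6% of the 2261 probes that changed in liver. The 44 probes that were more than 1 log2 unit higher on CR in liver had a median change of 0.23 in muscle, and 79.5% of them shared the sign. The 38 probes at least 1 log2 unit lower in liver had a median of -0.05 in muscle, and 60.5% shared the sign. With 18 arrays these shares were 72.7% for the higher and 57.9% for the lower probes. The median muscle change over all probes was 0.03, so a shared sign was reached more easily for rises than for falls in liver.

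**Figure D1:**
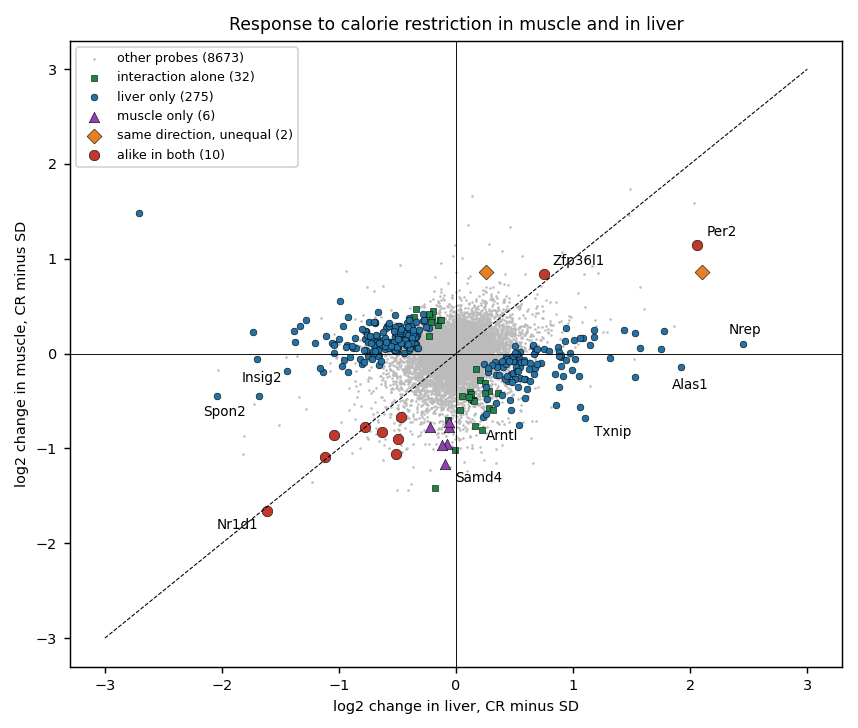
Change on CR in muscle (vertical axis) against the change in liver (horizontal axis), both as log2 CR minus SD, for the 8998 probes measured in both tissues. Coloured points mark the 10 alike, 2 unequal, 275 liver-only, 6 muscle-only and 32 difference-alone probes, and most of the coloured points lie near a muscle change of 0.

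CR and SD arrays did not overlap at 319 probes in muscle (3.55%), 1489 in liver (16.5%) and 66 in both tissues (0.733%). The genes that changed alike were led by genes of the clock. Nr1d1, which encodes the repressor REV-ERBα, fell in both tissues by about the same amount, and Per2, a clock repressor gene, rose in both. Because Nr1d1 and Arntl carry the clock results below, their promoter windows are shown with that of Gna13, the alike gene whose window holds the E-box. The windows are from RefSeq (GRCm38.p6), 5′ to 3′ on the strand of the gene, with 250 bases before and 50 after the annotated start. Capitals mark the motif found.
Nr1d1 (chr11:98775328-98775627, minus strand, E-box variant): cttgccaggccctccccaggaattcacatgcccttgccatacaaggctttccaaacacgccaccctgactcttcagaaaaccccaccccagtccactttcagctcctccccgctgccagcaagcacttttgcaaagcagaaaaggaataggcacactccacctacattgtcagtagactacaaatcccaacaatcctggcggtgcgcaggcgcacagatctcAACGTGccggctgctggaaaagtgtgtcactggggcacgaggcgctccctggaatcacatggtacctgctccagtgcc
Gna13 (chr11:109362544-109362843, plus strand, E-box): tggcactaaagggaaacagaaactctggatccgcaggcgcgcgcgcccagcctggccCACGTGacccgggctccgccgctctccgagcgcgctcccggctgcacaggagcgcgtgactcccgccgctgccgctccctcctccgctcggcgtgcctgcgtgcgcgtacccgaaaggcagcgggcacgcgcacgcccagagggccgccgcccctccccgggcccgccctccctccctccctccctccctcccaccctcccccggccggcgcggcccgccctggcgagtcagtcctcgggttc
Arntl (chr7:113207261-113207560, plus strand, ROR response element): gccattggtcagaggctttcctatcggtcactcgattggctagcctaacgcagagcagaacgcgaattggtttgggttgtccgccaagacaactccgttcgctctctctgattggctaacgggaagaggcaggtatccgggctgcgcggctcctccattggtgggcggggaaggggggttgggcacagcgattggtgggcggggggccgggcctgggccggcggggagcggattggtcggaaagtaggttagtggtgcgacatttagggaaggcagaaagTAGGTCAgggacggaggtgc
The search covered both strands for the E-box CACGTG, held by 7.15% of 32851 such windows, the E-box variant CACGTT (4.68%), the D-box TTATGTAA (0.938%) and the ROR response element TAGGTCA (2.61%). The Nr1d1 match lies on the opposite strand and reads as printed from position -28, the Gna13 match starts at -193, and the Arntl match starts at +30 in the second of its windows. Of the 10 genes that changed alike or in the same direction, 7 had a window, and their 8 windows held 1 E-box, 1 E-box variant, 0 D-boxes and 0 ROR response elements. Per2, Ddx6 and Hey1 had no window. A match describes letters in these windows.

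All values below are log2 signals, scaled within each tissue, so levels are compared between diets and not between tissues. Nr1d1 measured 8.13, 7.85, 7.94, 8.27 and 7.98 in the 5 muscle CR arrays, against 9.70, 9.65, 9.62, 9.42 and 10.09 in the muscle SD arrays. In liver it measured 7.78, 8.12, 7.91, 7.86 and 7.74 on CR, against 9.38, 9.16, 9.59, 9.46 and 9.91 on SD. The diets were more than 1 unit apart in each tissue, with no overlap. The change was -1.66 ± 0.13 (SE, n = 5 arrays per group) in muscle (3.17-fold lower, limma with Benjamini-Hochberg adjustment, adjusted p = 0.00076) and -1.62 ± 0.12 in liver (3.07-fold lower, adjusted p = 9.6e-06). Their difference was -0.05, with a 95% interval of -0.44 to 0.35. The other probe of Nr1d1 fell by 1.09 in muscle and by 1.12 in liver, with a difference of 0.03 (interval -0.37 to 0.43).

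Per2 measured 9.96, 9.69, 10.15, 9.31 and 9.80 in muscle on CR, against 8.49, 8.59, 8.70, 8.83 and 8.56 on SD. The liver values were 12.16, 12.21, 12.49, 12.28 and 12.35 on CR, against 9.14, 10.28, 10.53, 10.47 and 10.77 on SD. No CR array overlapped an SD array, and liver SD replicate 1 was the lowest array of the liver. Per2 rose by 1.15 ± 0.15 in muscle (2.22-fold, adjusted p = 0.02) and by 2.06 ± 0.23 in liver (4.17-fold, adjusted p = 0.00011). The rise in liver was the larger one, but the difference of -0.91 (interval -1.55 to -0.27) did not pass with this probe over 20 arrays (adjusted p = 0.11). It passed with 18 arrays (-1.04, adjusted p = 0.043), not with 16 (-1.07, adjusted p = 0.068), and, over 20 arrays, with the other Per2 probe, which rose by 0.86 in muscle and 2.10 in liver (difference -1.24, adjusted p = 0.026).

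The change of Arntl differed between the tissues. The gene measured 8.05, 7.95, 8.23, 7.99 and 8.16 in muscle on CR, all below the SD values of 9.25, 9.07, 8.56, 8.75 and 8.57. Liver arrays gave 8.51, 8.79, 8.44, 8.66 and 8.72 on CR, within the SD values of 8.76, 8.84, 8.20, 8.37 and 8.16. The difference between tissues was -0.92 (interval -1.35 to -0.49, adjusted p = 0.018). The muscle change itself, -0.76 ± 0.14, did not pass over 20 arrays (adjusted p = 0.075) and passed over 18 (-0.70, adjusted p = 0.014), and the liver change was 0.16 ± 0.13 (adjusted p = 0.41).

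With 1 probe per gene, 4 of all 6534 genes rose (0.0612%) and 13 fell (0.199%) in muscle, 825 rose (12.6%) and 844 fell (12.9%) in liver, and 136 (2.08%) and 92 (1.41%) had the muscle value above and below the liver value by the test of the difference. Over the 16 clock genes measured, 1 was higher and 1 lower in muscle, 4 were higher and 4 lower in liver, and Arntl was the 1 gene whose change differed between the tissues (6.25%, against 3.49% of all genes). Dbp, a clock output gene for a D-box binding factor, measured 11.15, 10.54, 10.56, 11.12 and 11.26 in muscle on CR, against 10.91, 10.60, 10.85, 11.16 and 11.60 on SD. In liver the gene measured 10.70, 10.64, 10.64, 10.57 and 10.45 on CR, against 11.05, 10.66, 11.92, 12.25 and 12.50 on SD. The diets overlapped fully in muscle and in 1 SD array in liver, where Dbp fell by 1.08 ± 0.28 (adjusted p = 0.015). The difference from the muscle change of -0.10 was 0.98 (interval 0.17 to 1.79) and did not pass (adjusted p = 0.18). Usp2, which encodes a clock-driven deubiquitinase, had an estimated change of -0.06 in muscle and rose by 1.52 in liver, and this difference did not pass either (adjusted p = 0.11). With 18 arrays 5 clock genes passed for the difference and 4 fell in muscle, among them Per1 (-0.91 in muscle, 0.35 in liver).

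The other alike genes were of several kinds. Zfp36l1 encodes a protein that binds AU-rich elements and promotes mRNA decay. It measured 11.90, 12.31, 12.37, 11.69 and 11.91 in muscle on CR, against 11.41, 11.21, 11.05, 11.04 and 11.25 on SD, and in liver 14.49, 14.67, 14.33, 14.96 and 14.70 on CR, against 13.65, 14.13, 13.47, 14.03 and 14.13 on SD. The diets did not overlap in either tissue. The gene rose by 0.84 ± 0.14 in muscle (adjusted p = 0.05, just inside the threshold) and by 0.75 ± 0.14 in liver (adjusted p = 0.003), a difference of 0.10 (interval -0.36 to 0.55). Its other probe gave 0.84 in muscle, which did not pass (adjusted p = 0.28), and 1.10 in liver.

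Bach1, a repressor of antioxidant and heme-degrading genes, measured 7.33, 7.30, 7.39, 7.49 and 7.30 in muscle on CR, against 8.17, 8.65, 8.27, 8.19 and 7.79 on SD. In liver it measured 8.01, 7.80, 7.46, 7.77 and 7.89 on CR, against 8.82, 9.52, 8.27, 8.88 and 8.66 on SD. All CR arrays lay below all SD arrays in both tissues, and the probe was detected on 4 of 5 CR arrays in each. Bach1 fell by 0.85 ± 0.14 in muscle and by 1.05 ± 0.18 in liver, a difference of 0.19 (interval -0.33 to 0.71).

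Gna13, the gene of a G protein alpha subunit, measured 8.76, 8.61, 8.88, 8.59 and 8.67 in muscle on CR, against 9.59, 9.74, 9.39, 9.25 and 9.39 on SD. The liver values were 9.99, 9.99, 9.69, 9.88 and 9.90 on CR, against 10.69, 10.88, 10.64, 10.49 and 10.65 on SD. The CR arrays were the lower ones throughout, and the spread within groups was small. Gna13 fell by 0.77 ± 0.11 in muscle and by 0.78 ± 0.09 in liver, a difference of 0.01 (interval -0.28 to 0.30). Papola, which encodes a poly(A) polymerase, fell by 0.82 ± 0.11 in muscle, where CR arrays lay at 8.26 to 8.68 against 9.16 to 9.34 on SD. It fell by 0.64 ± 0.13 in liver, where CR arrays lay at 8.53 to 8.94 against 8.98 to 9.78 on SD.

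The last 3 alike genes fell by more in muscle than in liver on point estimate, without passing for the difference. Rgs5, a regulator of G protein signaling typical of pericytes, fell by 1.06 ± 0.16 in muscle and 0.52 ± 0.08 in liver (difference -0.54, interval -0.92 to -0.17, adjusted p = 0.11). That interval leaves out 0, so for Rgs5 alike means only that the difference did not pass after adjustment. Ddx6, an RNA helicase of processing bodies, fell by 0.90 ± 0.14 in muscle and 0.50 ± 0.16 in liver, and Sertad2, a transcriptional regulator, by 0.67 ± 0.11 in muscle and 0.47 ± 0.11 in liver. Hey1, a transcriptional repressor and Notch target, was the gene of unequal change beside Per2. It measured 9.32, 9.16, 9.36, 8.96 and 9.30 in muscle on CR, against 8.21, 8.53, 8.19, 8.19 and 8.67 on SD, and rose by 0.86 ± 0.13. In liver it lay at 7.47 to 7.78 on CR and 7.23 to 7.52 on SD and rose by 0.26 ± 0.08, less than in muscle (difference 0.60, adjusted p = 0.032).

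Of the 10 alike probes, 9 were alike with 18 arrays and 10 with 16, and 1 was under neqc normalization. Without muscle CR replicate 5 or muscle SD replicate 2, 3 or 4, 1 of the 10 stayed alike. It was 2 without muscle CR replicate 1, 3 without muscle CR replicate 4, and 5 to 9 without another muscle array. Of the 20 fits that leave out 1 array, the muscle change no longer passed in 9 for Zfp36l1 and in 8 for each of Bach1 and Gna13. It was lost in 5 for Per2, in 4 for Papola and in 0 for Nr1d1. The 50 alike probes with 18 arrays (44 genes) had 7 higher and 43 lower on CR. All 140 muscle changes with 18 arrays, from which they come, were 22 higher (0.244% of all probes) and 118 lower (1.31%). The split of the alike probes is therefore near that of the muscle changes. Examples, chosen after their values were seen, are G0s2, an inhibitor of triglyceride lipolysis (1.86 in muscle, 1.49 in liver), Rbm3, a cold-induced RNA-binding protein (0.88 in muscle, 0.95 in liver), Keap1, the inhibitor of NRF2 (-0.76 in muscle, -0.43 in liver), and Srxn1, a peroxiredoxin reductase (-0.61 in muscle, -0.64 in liver).

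**Figure D2:**
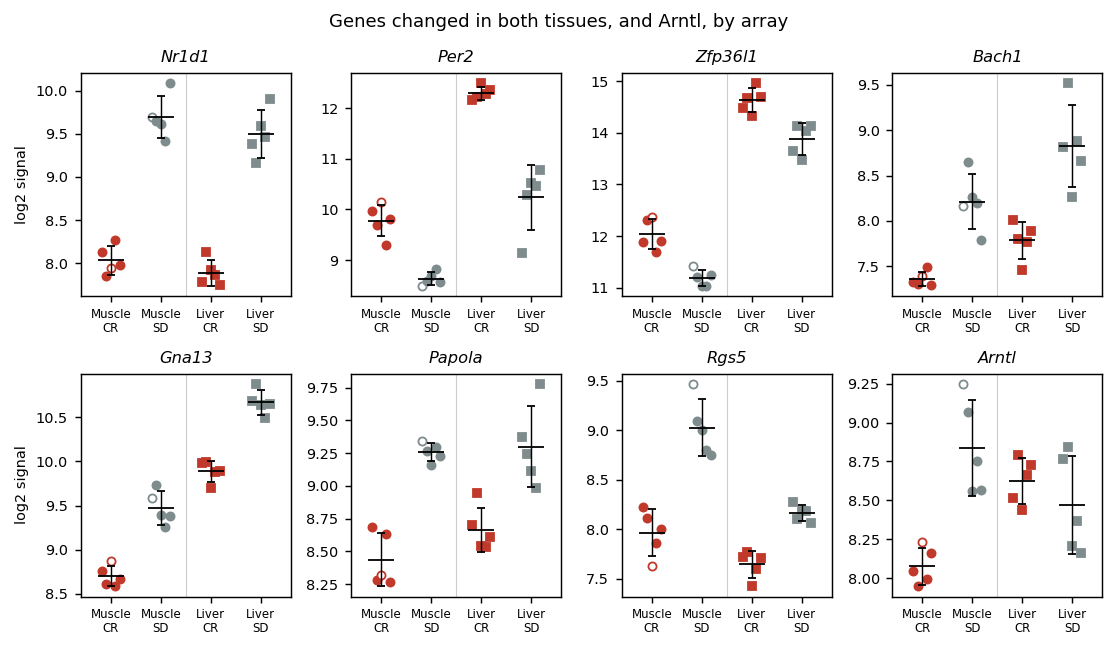
Log2 signal of 7 genes that changed alike and of Arntl, 1 point per array, for muscle CR, muscle SD, liver CR and liver SD, with bars for the mean ± SD of 5 arrays. Open symbols are muscle CR replicate 3 and muscle SD replicate 1, and the CR and SD points of Nr1d1 stand apart by over 1 unit in both tissues.

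The 275 probes that changed in liver only name 226 genes and include 29 probes without a symbol. On CR 101 were higher and 174 lower in liver. The median size of the change was 0.16 in muscle and 0.57 in liver, the muscle estimate had the opposite sign for 228, and the 95% interval of the muscle change lay within ±0.5 for 176. The 228 are partly set by the choice of probes, since a large difference is reached more easily with opposite signs. Of the 275, 168 were detected on all 10 muscle arrays and 253 on all 10 liver arrays. Over all 8998 probes the counts were 5471 and 7915. The shares of the 275 were near those of all probes, almost equal in muscle and slightly higher in liver. The part of low muscle signals in these calls was not tested.

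Nrep, which encodes a small neuronal regeneration related protein, measured 11.59, 10.97, 12.62, 11.66 and 11.68 in muscle on CR, against 11.80, 11.58, 11.68, 11.61 and 11.37 on SD. Liver arrays gave 11.74, 11.60, 12.95, 12.01 and 11.86 on CR, against 10.51, 9.59, 9.20, 9.16 and 9.43 on SD. The diets overlapped in muscle and were apart in liver. The changes were 0.10 ± 0.24 in muscle and 2.45 ± 0.27 in liver (5.47-fold), a difference of -2.35 (interval -3.20 to -1.51, adjusted p = 0.0034).

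Alas1, the rate-limiting enzyme of heme synthesis and a fasting-induced gene in liver, measured 12.14, 11.95, 12.51, 12.00 and 12.30 in muscle on CR, against 11.80, 12.55, 12.51, 12.45 and 12.31 on SD. In liver the gene measured 15.58, 15.20, 15.63, 15.69 and 15.47 on CR, against 12.43, 13.82, 13.87, 14.32 and 13.51 on SD. The muscle arrays were mixed, whereas liver CR arrays were all above liver SD arrays. The changes were -0.14 ± 0.16 in muscle and 1.92 ± 0.26 in liver (3.80-fold), a difference of -2.07 (adjusted p = 0.0029).

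Nmrk1, a nicotinamide riboside kinase of NAD synthesis, measured 7.40, 7.39, 7.91, 7.46 and 7.37 in muscle on CR, against 7.32, 7.23, 7.26, 7.16 and 7.38 on SD. In liver it measured 10.31, 9.93, 10.47, 10.14 and 10.11 on CR, against 8.49, 8.31, 8.38, 8.37 and 8.54 on SD. Muscle CR replicate 3 was the highest muscle array, and the liver diets were over 1 unit apart. The changes were 0.24 ± 0.12 in muscle and 1.78 ± 0.10 in liver (3.43-fold), a difference of -1.54 (interval -1.86 to -1.22, adjusted p = 3e-05). Acot1, a cytosolic acyl-CoA thioesterase induced by PPARα, lay at 7.48 to 8.27 in muscle on CR and 7.56 to 8.97 on SD. The liver values were 12.48, 13.17, 12.72, 13.02 and 12.75 on CR, against 12.02, 10.49, 11.61, 11.09 and 11.26 on SD. The changes were -0.24 ± 0.25 in muscle, where the diets overlapped, and 1.53 ± 0.23 in liver, where they did not (difference -1.77, adjusted p = 0.011).

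Txnip, an inhibitor of glucose uptake and of thioredoxin, measured 11.26, 11.94, 9.38, 11.61 and 11.03 in muscle on CR, against 11.52, 11.81, 11.96, 11.78 and 11.54 on SD. Liver arrays gave 11.13, 11.47, 11.48, 11.58 and 10.80 on CR, against 10.26, 9.79, 9.71, 10.37 and 10.79 on SD, a rise of 1.10 ± 0.20. The muscle estimate was -0.68 ± 0.39 with 20 arrays, where CR replicate 3 was the lowest, and -0.31 with 18, while the difference was -1.78 with 20 arrays (adjusted p = 0.042) and -1.42 with 18 (adjusted p = 0.0067). Gstt2, a glutathione transferase, had an estimated change of 0.27 in muscle and rose by 0.94 in liver (difference -0.67, adjusted p = 0.014), and Esrra, a nuclear receptor of mitochondrial genes, had an estimated change of -0.14 in muscle and rose by 0.55 in liver (difference -0.69, adjusted p = 0.036).

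Genes of sterol handling were among the falls. Insig2, which retains the SREBP complex in the endoplasmic reticulum, measured 9.34, 9.17, 9.05, 9.32 and 9.42 in muscle on CR, against 10.06, 9.68, 9.57, 9.68 and 9.56 on SD. In liver the gene measured 11.91, 12.07, 11.53, 12.25 and 11.89 on CR, against 13.62, 13.69, 13.85, 13.38 and 13.53 on SD. CR arrays were below SD arrays in both tissues, but the muscle change of -0.45 ± 0.12 did not pass (adjusted p = 0.27) and the fall of 1.68 ± 0.12 in liver did. The difference was 1.23 (adjusted p = 0.0012), and the other probe gave -0.18 in muscle and -1.44 in liver. Hmgcs1, the cytosolic HMG-CoA synthase of the mevalonate pathway, measured 11.05, 11.97, 12.38, 10.92 and 10.76 in muscle on CR, against 10.98, 11.12, 11.16, 10.93 and 11.09 on SD. Muscle CR replicates 2 and 3, the arrays with the highest Adipoq, were above the rest, and the part of fat tissue was not tested. In liver Hmgcs1 measured 13.01, 12.97, 13.60, 13.94 and 12.77 on CR, against 14.65, 15.32, 14.41, 13.79 and 14.52 on SD, with 1 CR array above the lowest SD array, and fell by 1.28 ± 0.26. The difference was 1.64 (adjusted p = 0.036), and with 16 arrays it did not pass (adjusted p = 0.085).

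Over the 16 measured genes of cholesterol synthesis and sterol sensing, 0 passed in muscle, 7 fell and 0 rose in liver, and 2 (12.5%) passed for the difference, Hmgcs1 and Insig2. The median change was 0.13 in muscle and -0.53 in liver, against 0.04 and 0.00 over all genes. Msmo1 (0.21 in muscle, -1.04 in liver), Cyp51 (0.14 in muscle, -0.82 in liver) and Fdps (0.14 in muscle, -0.56 in liver), enzymes of the same pathway, fell in liver without passing for the difference. Hsd3b7, an enzyme of bile acid synthesis, lay at 8.82 to 10.17 in muscle on CR, with replicates 2 and 3 again highest, and at 8.88 to 9.08 on SD. In liver it fell by 0.93 ± 0.08, with CR arrays at 13.74 to 13.90 against 14.58 to 14.95 on SD (difference 1.31, adjusted p = 0.014). With 16 arrays its muscle estimate was -0.07, against 0.39 with 20, and the difference was 0.87 (adjusted p = 0.0016), and in the fit of all 30 arrays the difference did not pass (adjusted p = 0.22).

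The interferon-stimulated genes included 3 with a difference. Usp18, which removes ISG15 from proteins, measured 7.68, 7.89, 8.48, 7.80 and 7.87 in muscle on CR, against 7.84, 7.70, 7.74, 7.84 and 7.67 on SD. In liver it measured 9.14, 8.64, 9.01, 8.97 and 9.18 on CR, against 10.48, 10.17, 10.06, 10.02 and 9.79 on SD. Muscle CR replicate 3 was the highest muscle array, and liver CR arrays were all below liver SD arrays. Usp18 had an estimated change of 0.19 ± 0.14 in muscle and fell by 1.11 ± 0.13 in liver, and the difference was 1.30 (adjusted p = 0.0016).

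Isg15, the ubiquitin-like modifier itself, had an estimated change of 0.12 in muscle and fell by 0.75 in liver (difference 0.87, adjusted p = 0.0034), and Psmb9, an immunoproteasome subunit, had an estimated change of 0.30 in muscle and fell by 0.57 in liver (adjusted p of the difference 0.018). Of the 20 interferon-stimulated genes measured, 0 passed in muscle, 7 fell and 1 rose in liver, and 3 (15%) passed for the difference, all with the muscle value higher. Their median change was 0.12 in muscle and -0.21 in liver. Of 15 macrophage markers, 2 fell in liver (13.3%, against 12.9% of all genes) and 0 rose, with a median of -0.33, and the part of cell composition was not tested.

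Other falls in liver only came from several systems. Spon2, a secreted matrix protein, measured 7.80, 8.08, 8.53, 8.13 and 7.65 in muscle on CR, against 8.24, 8.80, 8.40, 8.65 and 8.35 on SD. The liver values were 9.30, 9.50, 8.81, 9.47 and 9.34 on CR, against 11.52, 11.73, 11.17, 10.82 and 11.38 on SD. The change was -0.45 ± 0.17 in muscle, where the diets overlapped, and -2.04 ± 0.16 in liver, 4.11-fold lower (difference 1.59, adjusted p = 0.0022). With 18 arrays the muscle fall of 0.64 passed too (adjusted p = 0.045), and Spon2 was then a gene of unequal change.

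Klf9, a glucocorticoid-induced factor, had an estimated change of -0.15 ± 0.15 in muscle and fell by 1.17 ± 0.16 in liver, where CR arrays lay at 11.63 to 12.19 against 12.70 to 13.57 on SD (difference 1.02, adjusted p = 0.02). Slc8b1, the mitochondrial sodium/calcium exchanger, had an estimated change of 0.24 in muscle and fell by 1.38 ± 0.17 in liver, where CR arrays lay at 9.09 to 9.47 against 10.40 to 11.46 on SD (difference 1.62, adjusted p = 0.0012). Rnf125, a ubiquitin ligase, had an estimated change of -0.05 in muscle and fell by 1.70 ± 0.29 in liver (difference 1.65, adjusted p = 0.016), and its probe was detected on 0 of 5 muscle CR arrays and 3 of 5 muscle SD arrays.

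Another 4 differences had muscle and liver estimates of opposite sign, with the liver change passing and the muscle change not. Alas2, the heme synthesis enzyme of red cell precursors, had an estimated change of 0.33 in muscle and fell by 0.69 in liver (difference 1.02, adjusted p = 0.0082). Plin2, a lipid droplet coat protein, had an estimated change of 0.29 in muscle and fell by 0.49 in liver (difference 0.79, adjusted p = 0.039, and 0.055 with 16 arrays). Psmd4, a proteasome subunit, had an estimated change of 0.22 in muscle and fell by 0.44 in liver (difference 0.66, adjusted p = 0.039), and Elovl1, an elongase of very long fatty acids, had an estimated change of 0.34 in muscle and fell by 0.28 in liver (difference 0.63, adjusted p = 0.019), with its other probe not passing (0.23 in muscle, -0.22 in liver). Some differences depended on single arrays. Of the 20 fits that leave out 1 array, the difference no longer passed in 13 for each of Hmgcs1, Plin2, Txnip and Psmd4, in 12 for Esrra, in 11 for Icam1 and in 4 for Mef2c, with adjusted p up to 0.078.

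**Figure D3:**
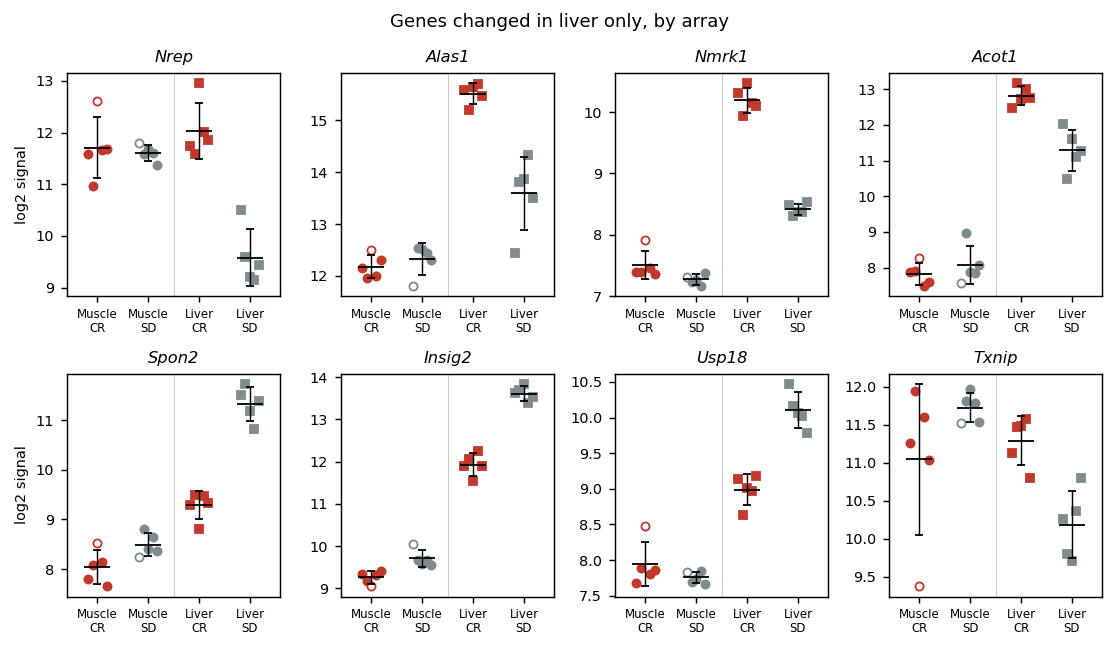
Log2 signal of 8 genes that changed in liver only, 1 point per array, for muscle CR, muscle SD, liver CR and liver SD, with bars for the mean ± SD of 5 arrays. Open symbols are muscle CR replicate 3 and muscle SD replicate 1, and in each panel the liver means of the diets are further apart than the muscle means. In the Txnip panel muscle CR replicate 3 stands alone at 9.38.

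All 6 genes that changed in muscle only were lower on CR. Of the 20 fits that leave out 1 array, the muscle change no longer passed in 9 for Mef2c and in 5 for Myo10. It was lost in 4 for Samd4 and in 3 for Nfic. Samd4, a translational repressor that binds Smaug elements, measured 8.79, 8.52, 7.93, 8.62 and 8.45 in muscle on CR, against 9.62, 9.79, 9.47, 9.62 and 9.63 on SD. Liver arrays gave 7.44, 7.52, 7.30, 7.64 and 7.63 on CR, against 7.54, 7.57, 7.44, 7.56 and 7.90 on SD. The diets were apart in muscle and overlapped in liver, where the probe was detected on 3 of 5 CR and 4 of 5 SD arrays. Samd4 fell by 1.16 ± 0.15 in muscle (2.24-fold lower, adjusted p = 0.02) against -0.10 ± 0.10 in liver (difference -1.07, adjusted p = 0.0034).

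Mef2c, a transcription factor of muscle fibres, measured 12.37, 12.16, 11.71, 12.15 and 12.18 in muscle on CR, against 12.87, 13.04, 12.91, 12.87 and 12.76 on SD. In liver the gene measured 8.43, 7.78, 7.83, 7.87 and 7.96 on CR, against 8.18, 8.19, 7.86, 7.92 and 8.01 on SD. The highest liver CR value is that of replicate 1, the array with muscle fibre markers. Mef2c fell by 0.78 ± 0.12 in muscle (adjusted p = 0.035) against -0.06 ± 0.12 in liver (difference -0.72, adjusted p = 0.029), and a probe measured in muscle alone gave -1.61.

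Nfic, a nuclear factor I gene, measured 7.57, 7.12, 7.53, 7.57 and 7.39 in muscle on CR, against 8.57, 8.50, 8.23, 8.33 and 8.40 on SD, and fell by 0.97 ± 0.11 (adjusted p = 0.017). In liver it lay at 8.29 to 8.89 on CR and 8.37 to 8.99 on SD (difference -0.85, adjusted p = 0.013). Its probes disagreed on liver, since another gave -0.70 in muscle and -0.07 in liver and the third gave -0.89 in muscle, not passing, and a rise of 0.64 in liver. Myo10, an unconventional myosin of filopodia, measured 8.07, 7.75, 7.59, 7.68 and 7.74 in muscle on CR, against 8.63, 8.85, 8.66, 8.99 and 8.44 on SD, and fell by 0.95 ± 0.13 against -0.08 ± 0.12 in liver (difference -0.87, adjusted p = 0.013). Nhlrc2 fell by 0.72 ± 0.12 in muscle against -0.06 ± 0.07 in liver, and Lsm12, an RNA-binding protein gene, by 0.77 ± 0.12 against -0.23 ± 0.09 in liver, where its change did not pass (adjusted p = 0.074). The other Lsm12 probes disagreed on liver, with -0.41 in muscle and 0.24 in liver for one, neither passing, and -0.35 in muscle, not passing, and a fall of 0.35 in liver for the other.

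**Figure D4:**
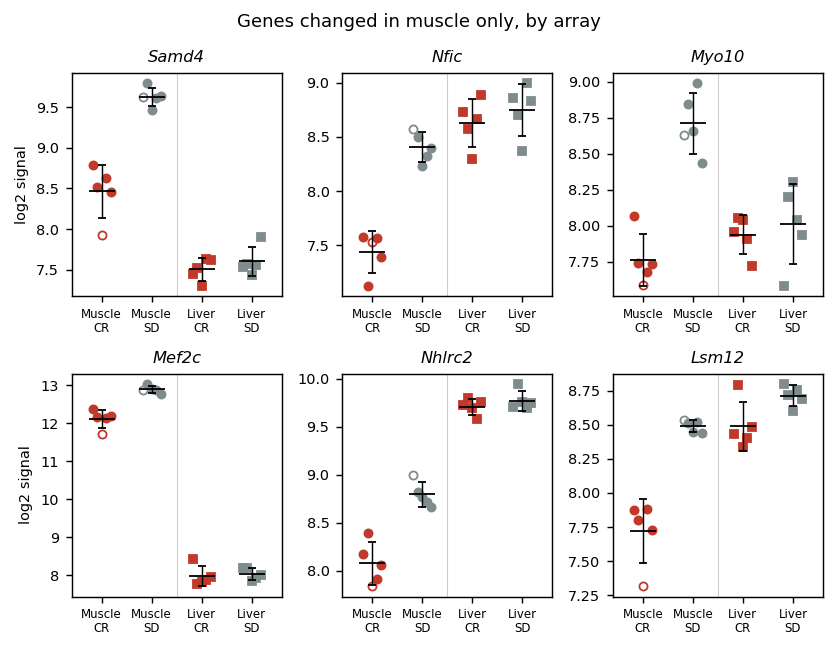
Log2 signal of the 6 genes that changed in muscle only, 1 point per array, for muscle CR, muscle SD, liver CR and liver SD, with bars for the mean ± SD of 5 arrays. Open symbols are muscle CR replicate 3 and muscle SD replicate 1, and in every panel all muscle CR points lie below all muscle SD points while the liver diets overlap.

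Another 3 genes passed in muscle without passing in liver or for the difference. Ier3, an immediate early survival gene, measured 10.21, 10.41, 10.82, 10.34 and 9.99 in muscle on CR, against 8.62, 8.95, 9.05, 8.80 and 9.56 on SD, and rose by 1.36 ± 0.19. In liver it lay at 8.63 to 9.27 on CR, inside the SD range of 7.80 to 9.96, and the difference of 1.26 (interval 0.46 to 2.06) did not pass (adjusted p = 0.078). Nfatc3, a calcineurin-dependent factor, fell by 0.58 in muscle against -0.21 in liver, and 6430548M08Rik by 0.72 against -0.22.

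No gene changed in opposite directions by the tests of all 20 arrays with equal weight. Of the 315 probes that differed between tissues, 257 had estimates of opposite sign. A large difference is reached more easily with opposite signs, so sign counts among probes selected by the difference are no evidence of opposite responses. Over all probes the sign was the same for 55.4%. At an unadjusted p under 0.05 in each tissue there were 331 probes (3.68%). Of these, 67 (0.745% of all probes) changed in opposite directions and the rest in the same direction. Among the 67, 48 passed for the difference, which opposite signs with both p-values small make likely. Of the 32 probes that passed for the difference alone, 29 had estimates of opposite sign, 19 of them with muscle below and liver above SD. Icam1, an adhesion molecule induced by NF-κB, measured 7.76, 8.07, 7.79, 7.62 and 7.69 in muscle on CR, against 7.40, 7.35, 7.62, 7.37 and 7.53 on SD. In liver it measured 8.60, 8.64, 8.48, 8.53 and 8.87 on CR, against 9.03, 8.97, 8.82, 8.66 and 8.75 on SD. Neither change passed alone (0.33 in muscle, -0.22 in liver), and the difference was 0.55 (adjusted p = 0.037, and 0.079 with 16 arrays). With 16 arrays Dusp16, a phosphatase of MAP kinases, was the 1 gene that passed in opposite directions (0.50 in muscle, -0.43 in liver). With all 20 arrays at equal weight its muscle change was 0.10 and did not pass. When arrays were weighted by their quality, 4 probes passed in opposite directions, those of Dusp16 (0.42 in muscle, -0.45 in liver), Prkacb (-0.38 in muscle, 0.28 in liver) and Hbegf (-0.62 in muscle, 0.23 in liver) and 1 without a symbol.

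Larger groups that changed in liver mostly did not pass for a difference. Of 52 cytosolic ribosomal protein genes, 0 passed in muscle, 29 rose and 0 fell in liver, and 0 passed for the difference. The median change was 0.12 in muscle and 0.27 in liver, and with 18 arrays 6 passed for the difference, all with the liver value higher. Of 26 heat shock proteins and cochaperones, 14 rose and 0 fell in liver, among them Hsph1 (0.36 in muscle, 1.32 in liver), Chordc1 (0.32 in muscle, 0.96 in liver) and Hsp90aa1 (0.34 in muscle, 0.80 in liver). None of the 26 passed in muscle or for the difference with 20 arrays, and 4 passed for the difference with 18, all with the liver value higher.

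In respiratory chain complexes II to V, 13 of 35 genes rose and 1 fell in liver, and in complex I 8 of 33 rose and 0 fell, with no difference between tissues passing in either with 20 arrays. Their muscle medians changed sign with the arrays used. For complexes II to V the median was 0.17 with 20 arrays and -0.03 with 18, and for complex I it was 0.15 with 20 arrays and -0.06 with 18. With 18 arrays 3 genes of each list passed for the difference, all with the liver value higher. Of 25 FoxO target, muscle atrophy and autophagy genes, 0 passed in muscle, 11 fell and 1 rose in liver, and 0 passed for the difference, with Fbxo32, the atrogin-1 ubiquitin ligase, at -1.19 in muscle (not passing) and -0.36 in liver. With 18 arrays 1 of the 25 fell in muscle and 3 passed for the difference, all with the muscle value higher. Of 28 proteasome subunits, 7 fell in liver and 1, Psmd4, passed for the difference, against 4 with 18 arrays, all with the muscle value higher.

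In NAD synthesis and the sirtuins, 3 of 11 genes rose in liver, Nmrk1, Nampt (0.15 in muscle, 0.89 in liver) and Nadk, and Nmrk1 alone passed for the difference with 20 arrays, against 3 genes with 18. Sirt1, the deacetylase that the study targets with its drug, measured 8.03, 7.97, 8.43, 7.86 and 8.01 in muscle on CR, against 8.66, 8.20, 8.04, 7.94 and 7.77 on SD. The liver values were 8.71, 8.77, 8.83, 8.67 and 8.91 on CR, against 8.78, 8.85, 8.69, 8.49 and 8.73 on SD. The diets overlapped in both tissues, and the difference was -0.14 (interval -0.53 to 0.26). The 8 adipocyte genes had medians of 0.71 in muscle and -0.08 in liver, but 0 passed in muscle or for the difference, and the level of Adipoq differed between the muscle CR arrays as given above.

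**Figure D5:**
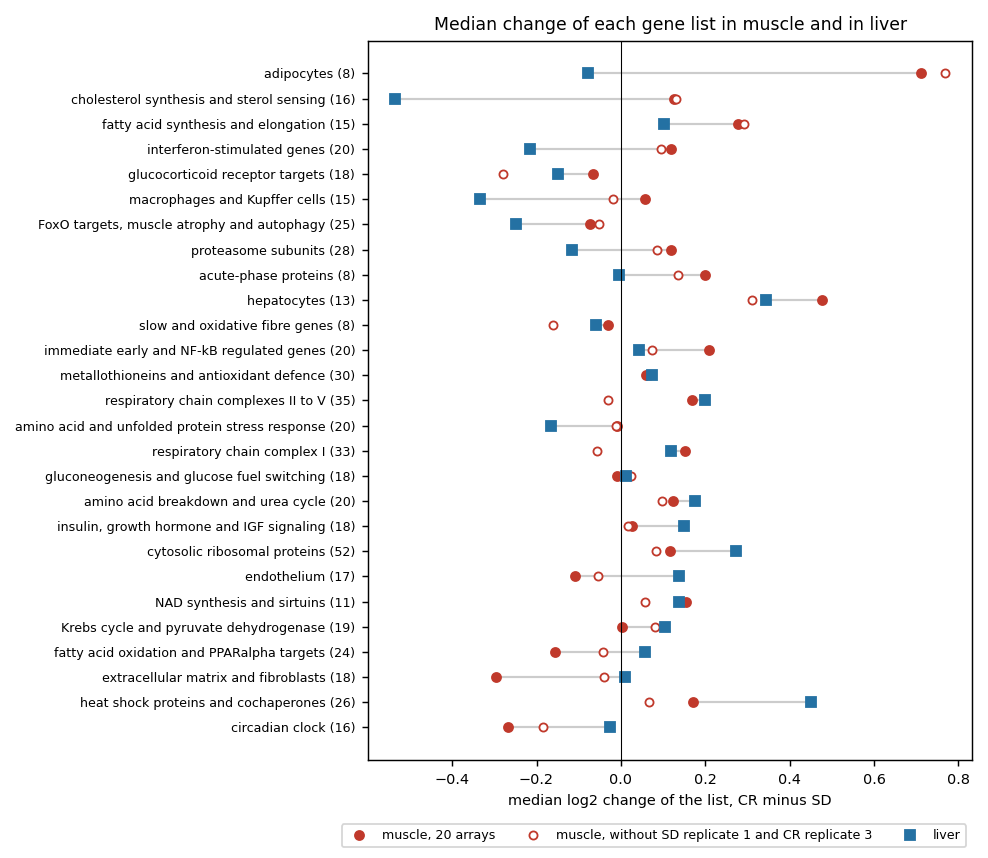
Median log2 change on CR of the gene lists with 8 or more measured genes in muscle (red circles, 20 arrays filled and 18 arrays open) and in liver (blue squares), with the number of measured genes in parentheses. Among the lists shown, the widest gaps between muscle and liver medians are those of the adipocyte genes (0.71 against -0.08) and of cholesterol synthesis and sterol sensing (0.13 against -0.53).

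Several genes that the study names beside a CR value were not told apart between the tissues, with wide intervals. Cish, a feedback inhibitor of cytokine signaling, measured 9.59, 9.14, 11.86, 10.70 and 10.49 in muscle on CR, against 10.17, 8.75, 7.74, 8.42 and 8.77 on SD. Liver arrays gave 11.89, 10.47, 9.67, 10.96 and 12.46 on CR, against 9.83, 8.43, 8.16, 9.74 and 9.14 on SD. The diets overlapped in both tissues, the muscle change of 1.58 ± 0.53 did not pass, the rise of 2.03 ± 0.47 in liver did, and the difference had an interval of -2.07 to 1.18. With 16 arrays Cish rose in both tissues (1.84 in muscle, adjusted p = 0.0042, and 1.83 in liver, adjusted p = 0.024). Socs2, of the same family, was at 0.10 ± 0.27 in muscle and 1.04 ± 0.42 in liver, and neither passed. Its muscle estimate was 0.44 with 18 arrays, not passing, and 0.58 with 16, where it passed (adjusted p = 0.045).

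Cdkn1a, which encodes the cell cycle inhibitor p21, measured 8.54, 8.70, 7.63, 8.31 and 8.25 in muscle on CR, against 8.26, 9.95, 9.92, 9.54 and 9.07 on SD. In liver the gene measured 8.09, 7.69, 7.79, 8.33 and 7.92 on CR, against 8.65, 10.87, 10.62, 10.45 and 8.35 on SD. Muscle SD replicate 1 lay among the CR arrays, and the liver diets did not overlap. The muscle change of -1.06 ± 0.32 did not pass with 20 arrays (adjusted p = 0.34) and passed with 18 (-1.17, adjusted p = 0.012), and Cdkn1a fell by 1.82 ± 0.43 in liver.

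Egr1, an immediate early transcription factor, was at 12.35 to 13.22 in muscle on CR against 10.65 to 12.19 on SD, and at 13.32 to 14.63 in liver on CR against 10.27 to 14.35 on SD. Its changes of 1.46 ± 0.29 in muscle (adjusted p = 0.089) and 1.47 ± 0.55 in liver (adjusted p = 0.066) did not pass, and the interval of the difference was -1.49 to 1.46. Cyp2e1, a cytochrome P450, was at 12.25 in muscle CR replicate 2, against 8.20 to 9.80 in the other muscle CR arrays and 7.91 to 8.93 on SD, and in liver at 15.54 to 15.80 on CR against 15.15 to 15.67 on SD. For Elovl3, Lcn2 and Cfd no probe was measured in both tissues.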

How the data were processed

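Muscle and liver RNA was hybridised to MouseRef-8 v2 bead arrays of Illumina, 1 per sample, and each array was assigned to its tissue, diet and replicate from the labels. The authors used GenomeStudio, given as version 1.6.0 in the processing notes, to read out the arrays. The intensity of each probe was deposited on a linear scale, where no value is at or below 0. A detection p-value was deposited beside each intensity and sets it against the negative controls of its array. A score was deposited too, which is the natural log of the intensity, standardised over the probes of the array. Signal and p-value columns name the group but not the replicate, so replicates were taken from the scores.

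Scores were scaled to mean 0 and SD 1 over the probes kept in a tissue, multiplied by the mean array SD of that tissue (in natural log units, 1.03 in muscle and 1.19 in liver) and converted to log2 units. Muscle and liver are therefore scaled separately. The difference between tissues, (muscle CR minus muscle SD) minus (liver CR minus liver SD), was tested with limma 3.58.1 in R 4.3.3 over the 20 SD and CR arrays, and CR against SD in a fit of each tissue. Benjamini-Hochberg adjustment ran over the 8998 probes, with a threshold of 0.05. Muscle and liver arrays were taken as independent, although same-numbered arrays may come from 1 mouse. Nothing in the labels ties arrays to separate animals, so p-values measure the spread between these samples.

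Symbols came from the platform annotation (23978 probes with 1 symbol, 1719 with none), and 23962 probes matched the RefSeq gene table. A gene in a list is given by its brightest probe. The genes named are up to 4 per class and direction with the largest change and no overlap of the diets, up to 2 members of each of 31 lists with the smallest adjusted p of the difference under 0.05, and genes that the study names for CR. Any other gene was picked with its values in view. The members and lists were chosen with earlier results of these data known. The number of arrays limits the precision. On simulated data with 200 changed probes among 8998, a change of 1 log2 unit placed in CR muscle was recovered for 77% in the difference between tissues and 77.5% in muscle, one in CR liver for 99.5% in liver, and one of 0.5 units for 22%, 24% and 83%. The simulated noise was independent between probes and arrays. It held no shift of a whole array such as that of muscle CR replicate 3, so these shares may not hold for the real arrays. Alternatives were another normalization, detection filter, spread, threshold and set of arrays, the replicate number as a block and the t-test of the methods. The study's own tables of comparisons were not used. Python 3.11.15 and matplotlib 3.10.9 made the figures.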

Additional observations from a re-analysis of the deposited data

Results flagged for a closer look

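For 26 of the 39 genes named, the change in muscle differed from the change in liver by the test of the difference itself. Many were named because they passed it, so this share says nothing beside the 3.5% of all probes that passed. The values are muscle change minus liver change on the log2 scale. Positive ones were Rnf125 1.65, Hmgcs1 1.64, Slc8b1 1.62, Spon2 1.59, Hsd3b7 1.31, Usp18 1.30, Insig2 1.23, Alas2 1.02, Klf9 1.02, Isg15 0.87, Plin2 0.79, Psmd4 0.66, Elovl1 0.63 and Icam1 0.55. Negative ones were Nrep -2.35, Alas1 -2.07, Txnip -1.78, Acot1 -1.77, Nmrk1 -1.54, Samd4 -1.07, Arntl -0.92, Myo10 -0.87, Nfic -0.85, Mef2c -0.72, Esrra -0.69 and Gstt2 -0.67.

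In 13 of 156 groups of 5 arrays (8.33%) 1 array lay far from the other 4 by Dixon's test, which chance alone gives in about 1 in 20 groups. Muscle CR replicate 3 was such an array for Nmrk1 (7.91), Rnf125 (7.54) and Usp18 (8.48), each time the highest of its group, and muscle SD replicate 1 for Insig2 (10.06) and Elovl1 (7.21). The others were muscle SD replicate 5 for Hsd3b7 (8.88), liver CR replicate 1 for Mef2c (8.43), liver CR replicate 5 for Esrra (10.35) and Hsd3b7 (13.74), liver SD replicate 1 for Slc8b1 (11.46) and Socs2 (10.34), and liver SD replicate 5 for Samd4 (7.90) and Isg15 (8.85). Mef2c in liver CR replicate 1 stands beside the muscle fibre markers of that array, and their part in its value was not tested. The Rnf125 probe was detected on 0 of 5 muscle CR arrays, so its 7.54 is a background value. Markers detected on no muscle array were also highest in muscle CR replicate 3 (Alb at 7.32, Fga at 7.48). The part of this in the values of Nmrk1, Rnf125 and Usp18 was not tested.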

How the results depend on the processing

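With 20 arrays the counts were 315 probes for the difference between tissues, 21 for muscle, 2261 for liver, 10 alike, 275 in liver only and 6 in muscle only. In the same order, without liver, neqc gave 75, 2, 1, 61 and 1. Detection on all 15 arrays of both tissues gave 172, 6, 4, 156 and 0, with 1437 in liver. A threshold of 0.01 gave 75, 1, 1, 69 and 0, with 1031 in liver. Array weights gave 1056, 256, 98, 841 and 62, and 4 probes in opposite directions. The 18 arrays gave 823, 140, 50, 662 and 41. The 16 arrays, chosen after seeing the data, gave 562, 260, 71, 437 and 57, and 1 in opposite directions. The fit of all 30 arrays gave 40 for muscle, 22 alike and 11 in muscle only, and 1 pooled spread gave 126 for muscle, 31 alike, 28 in muscle only and 952 in liver. The difference gave 203 with the deposited scores as they are, 160 with quantile normalization over both tissues (134 in liver only) and 497 with no filter (421 in liver only). The t-test of the methods gave 770 muscle probes unadjusted and 1 after Benjamini-Hochberg adjustment.

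Leaving out 1 array gave 199 to 665 for the difference, 1 to 74 for muscle, 1661 to 2380 for liver, 1 to 34 alike, 176 to 573 in liver only, 0 to 21 in muscle only and 0 to 0 opposite. The highest were without muscle CR replicate 3, apart from liver. Without muscle CR replicate 5 the muscle count was 1. Same-numbered muscle and liver arrays of a diet deviated together in 5 of 10 pairs (r above 0.1, range -0.12 to 0.36), 4 of 5 on SD, each of these its own best match, and 1 of 5 on CR. Muscle and liver columns of the deposited signals also share running numbers, but no source says that a number is 1 mouse, so whether the numbers pair the samples is not known. As a block in the test of the difference, same-numbered muscle and liver arrays of a diet gave 167 probes. Within a tissue the block instead joined CR and SD arrays of the same number, which are samples of different diets. That fit gave 0 for muscle, and the classes built on both fits gave 0 alike, 145 in liver only and 0 in muscle only. The muscle and class counts therefore do not show the effect of pairing the tissues.

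The share of differences with muscle higher was 58.7% and 53.1% to 65.4% under other scalings, and under neqc 0% of the 2 muscle calls were higher, against 23.8%. Of 72 values, which are the changes and differences of named genes that passed with 20 arrays and the differences of genes the study names, 45 kept direction and side of the threshold under neqc, 53 with the block and 72 with 18 arrays. For changes within a tissue the block joined CR and SD arrays of the same number. Values that changed sign were not past the threshold. The difference for Egr1, -0.01, was 0.064 with quantile normalization over both tissues, 0.045 with median scaling, 0.016 with the scores as they are or no filter, 0.20 with 1 SD for both tissues and -0.46 to 0.56 with 1 array left out. That for Cish, -0.44, was 0.011 with 16 arrays. The cause of these changes was not tested.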

Other observations

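Of the 2067 probes measured in liver but not in muscle, 444 changed on CR (21.5%), 278 higher and 166 lower, and of the 1794 measured in muscle but not in liver, 2 changed, both lower. These have no difference between tissues. In liver they include genes of the acute phase (Lcn2 at -3.66, Saa1 at -2.22), of fatty acid handling (Acot3 at 3.11, Angptl8 at 2.04, Elovl6 at 1.68, Elovl3 at -2.02) and Cyp7a1, the rate-limiting enzyme of bile acid synthesis, at 1.78. In muscle they were a Mef2c probe (-1.61) and Cacna2d1, a calcium channel subunit (-1.32). Genes and lists not measured in both tissues are not counted in the comparisons above.

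Among the 41 muscle-only probes of the 18 arrays, 35 were lower on CR, a split near that of all muscle changes with these arrays (118 of 140 lower). Examples, chosen after their values were seen, are Tob2, an antiproliferative factor (-1.46 in muscle, -0.51 in liver), Eif4ebp2, a repressor of translation initiation (-1.10 in muscle, -0.18 in liver), Sik1, a CREB-responsive kinase (-0.89 in muscle, 0.30 in liver), and Eef2, the elongation factor of translation (-0.82 in muscle, 0.03 in liver). The liver change of Tob2 was near the threshold (limma, adjusted p = 0.081). These calls are not made with all 20 arrays.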
